A study of Mus musculus with 15 samples.

Results

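The myogenic determination factors described here are 6 genes: Pax7, Pax3, Myf5, Myod1, Myog and Msc. They were chosen by name from a table of bulk RNA-seq counts that lists 8059 genes, and all 6 were present in it and passed the filter on low counts. The material was skeletal muscle stem cells of the mouse, also called satellite cells, which lie beside the muscle fibres. The T0 group is labelled intact and fixed, and the T15, T30, T60, T90 and T120 groups are labelled dissociated and fixed. Fixation was with paraformaldehyde and dissociation with collagenase and dispase, so every group carries the fixative, and T0 alone is not labelled dissociated. That label does not show that T0 never met the enzymes. The labels give no unit for the numbers after T, which were taken as minutes, and no label says how cells of the bulk libraries were sorted.

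PAX7 and PAX3 are paired-domain transcription factors that mark muscle stem cells and their embryonic precursors. MYF5, MYOD1 and myogenin (the product of Myog) are basic helix-loop-helix proteins that pair with E proteins, bind the E-box, and act in order: MYF5 and MYOD1 set and activate the muscle fate, and myogenin drives terminal differentiation. Musculin (Msc, also MyoR) is a related protein known as a repressor of that family, and resting satellite cells are known for high Pax7 with little MYOD1 protein.

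Libraries are named by the letters of the table, with 3 at T30, 3 at T90 and 4 at each of the other times. The labels list 1 sample per time point and do not say that the lettered libraries came from separate animals, so p-values measure the spread between libraries, which may be technical. Total counts per library were 2974294 to 10482407 from T0 to T30 and 8647622 to 27826437 from T60 to T120. All 10 satellite cell markers fixed for the tissue check were listed, with a summed level of 4960 to 7490 CPM (counts scaled to library size by edgeR's TMM factors) at every time. Of the other markers, 5 of 9 endothelial, 3 of 7 fibro-adipogenic, 7 of 8 smooth muscle and pericyte, 1 of 8 immune and 5 of 10 myofibre genes were listed. No glial or tenocyte marker, of 3 each, was listed. None of the listed markers was at 0 at any time. Endothelial markers summed to 149 to 240 CPM at T0 and 321 to 599 CPM at T120, and myofibre markers to 316 to 494 CPM at T0 and 142 to 356 CPM at T120. Smooth muscle and pericyte markers summed to 961 to 1140 CPM at T0, 1370 to 1460 CPM at T60 and 987 to 1290 CPM at T120. The satellite cell markers, which include Pax7 and Myf5, summed to 5300 to 6770 CPM at T0, 6660 to 7490 CPM at T60 and 5010 to 6020 CPM at T120. Their part in the results on the 6 genes was not tested. In bulk samples, fewer cells of a type and less RNA per cell cannot be told apart.

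The 6 genes lie on 4 chromosomes of GRCm38, by GENCODE vM21. Pax7 (ENSMUSG00000028736) is at chr4:139737062-139833528 and Pax3 (ENSMUSG00000004872) at chr1:78101267-78197134, both on the minus strand. Myf5 (ENSMUSG00000000435) is at chr10:107482908-107486134 on the minus strand and Myod1 (ENSMUSG00000009471) at chr7:46376474-46379099 on the plus strand. Myog (ENSMUSG00000026459) is at chr1:134289989-134292548 on the plus strand and Msc (ENSMUSG00000025930) at chr1:14753346-14755992 on the minus strand. Counts of Msc may include reads of Gm9947, whose exons overlap it on the other strand, because the strand setting of the counting is not given. No run of 50 bases is shared among the exons of the 6 genes.

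RefSeq's promoter table (GRCm38.p6) matched Pax7, Myf5 and Myog, 3 of the 6. The Myog and Myf5 windows are shown because these 2 members of the MYOD1 family were, in that order, the one that fell furthest at T120 and the one that the joint test over all times did not call. Each is the 250 bases before RefSeq's start site on the gene's own strand, 5′ to 3′, and capitals mark the E-box CANNTG and the MEF3 motif TCAGGTTTC. The Pax7 window lies in an annotated untranslated exon and is not shown.
Myog, chr1:134289754-134290003, plus strand: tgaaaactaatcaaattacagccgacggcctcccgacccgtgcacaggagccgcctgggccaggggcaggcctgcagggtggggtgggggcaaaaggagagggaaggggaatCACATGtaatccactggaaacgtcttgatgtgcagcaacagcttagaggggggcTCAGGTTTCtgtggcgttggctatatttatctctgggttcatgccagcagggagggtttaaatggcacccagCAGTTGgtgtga
Myf5, chr10:107486135-107486384, minus strand: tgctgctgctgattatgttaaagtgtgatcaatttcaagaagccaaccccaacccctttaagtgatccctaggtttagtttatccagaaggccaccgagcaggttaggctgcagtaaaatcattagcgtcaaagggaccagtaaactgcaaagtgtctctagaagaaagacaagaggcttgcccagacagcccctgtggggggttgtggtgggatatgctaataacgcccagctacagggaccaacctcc
The Myog window holds E-boxes at -138 and -12 and a MEF3 motif at -84, positions being those of the leftmost base counted back from the start site. An E-box was found in 66.2% of the 32851 promoter windows of this length and MEF3 in 0.387%. The last bases of the Myog window, with the whole E-box at -12, lie in its first exon by GENCODE. The Myf5 window holds neither motif. Both strands were searched, also for MEF2 (YTAWWWWTAR), CArG (CCWWWWWWGG), AP-1 (TGANTCA), CRE (TGACGTCA), the TATA box (TATAAA), the GC box (GGGCGG) and the Notch RBPJ motif (TGGGAA). In these letters Y is C or T, W is A or T, R is A or G, and N is any base. None of these patterns was found in either window as spelled. The Myog window does hold ctatatttat, which departs from the MEF2 pattern only at its last base. The search did not cover such spellings, so it does not show that MEF2 sites are absent. No motif overlapped another. These matches are descriptions of letters, not sites of binding.

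Myod1 and Msc rose and Pax7 fell as digestion went on, while Myf5 changed little. Mean Myod1 was 81.5 CPM at T0 and 936 CPM at T120, mean Msc was 49.6 and 379 CPM, and mean Pax7 was 1340 and 377 CPM. Genes were tested with edgeR's quasi-likelihood test in 1 fit of all 22 libraries, with p adjusted by Benjamini-Hochberg over 8059 genes and a gene called at an adjusted p under 0.05. At T15 and T30 none of the 6 genes was called against T0, where 0.67% and 5% of all genes were. At an unadjusted p under 0.05 there were 0 of the 6 at T15 and 1, Pax3, at T30. At T60, 3 of 6 were called, all up, beside 56.2% of all genes called and 27.9% called up. At T90, 4 of 6 were called beside 68.8%, with 3 up (33.8% of all genes) and 1 down (35%). At T120, 4 of 6 were called beside 76.8%, with 2 up (37.3%) and 2 down (39.5%). The share of the 6 genes called was below the share of all genes at each of these 3 times, so their number is not a result about them. Their sizes of change are given next.

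**Figure D1:**
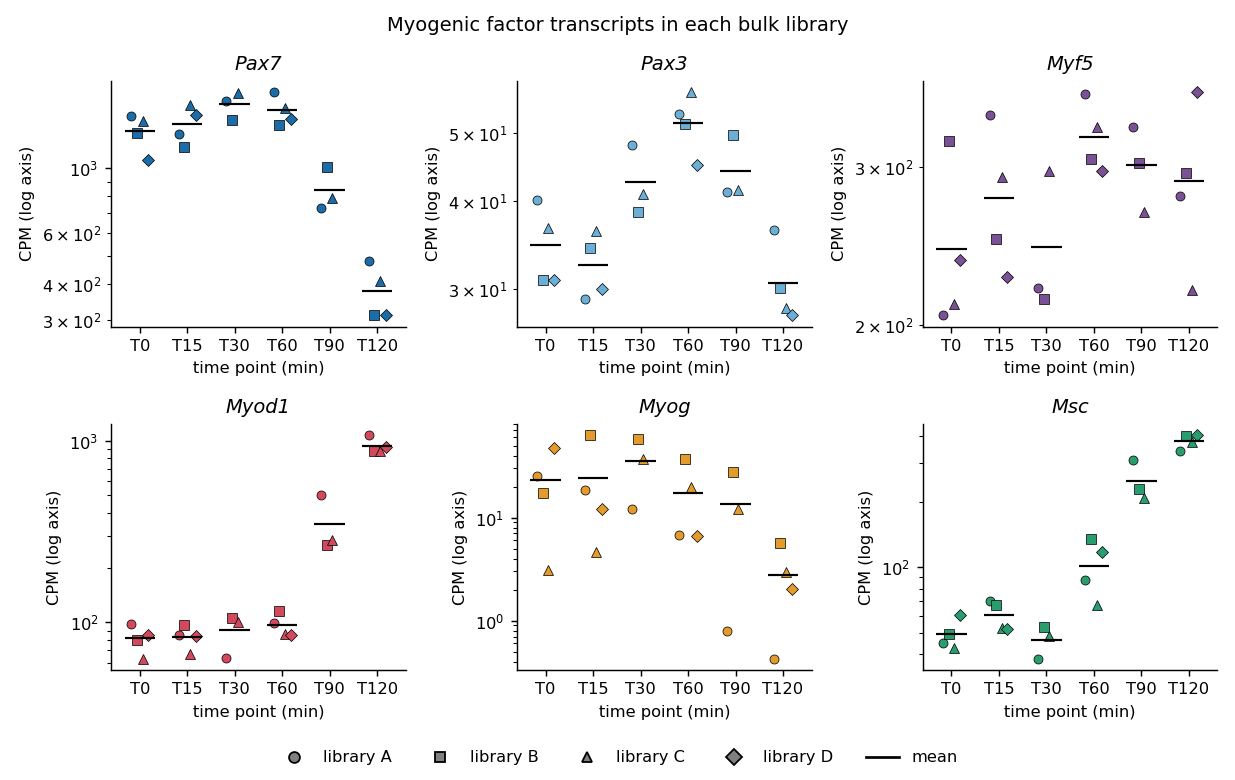
Level of each of the 6 genes in each library in TMM-scaled CPM (log axis) by time point, with T0 the intact, fixed group. Marker shapes give the library letter, and a horizontal line gives the mean of each group. Pax7 falls and Myod1 and Msc rise at T90 and T120, and the Myog points spread widely at every time.

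PAX7 is the transcription factor that defines the satellite cell. Pax7 stood at 1520, 1320, 1460 and 1070 CPM in libraries A to D of T0. At T60 it stood at 1830, 1410, 1620 and 1480 CPM, and the groups overlapped. At T90 it stood at 732, 1010 and 790 CPM, and at T120 at 478, 313, 408 and 311 CPM. Every T90 library was below every T0 library, and every T120 library was below every T90 library. The edgeR log2 fold change against T0 was 0.24 ± 0.16 (SE) at T60 (adjusted p = 0.204), -0.67 ± 0.17 at T90 (adjusted p = 0.0018) and -1.83 ± 0.16 at T120 (adjusted p = 2.54e-09), a level 3.56-fold lower than T0. Between T90 and T120 alone the level was 2.23-fold lower (log2 -1.16 ± 0.17, edgeR adjusted p = 0.000211), which ranked 33rd from the lowest among 8059 genes, whereas the T120 change against T0 ranked 478th. From T60 to T90 it fell by 0.91 ± 0.17 on the log2 scale (edgeR adjusted p = 0.000722), and with the background of 6 long genes, described below, subtracted this step was -1.05 (edgeR adjusted p = 0.0542). Between T30 and T60 the Pax7 libraries overlapped. The log2 change was -0.07 (edgeR adjusted p = 0.761), beside a median of 0.01 for all genes. With that subtraction the change was -1.06 (edgeR adjusted p = 0.0138), beside a median of 0.44. With raw column totals it was -0.41 (edgeR adjusted p = 0.047), beside a median of -0.33, so that value is close to the shift of all genes.

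PAX3 is the paralog of PAX7 and marks a subset of satellite cells. Pax3 was low, at 40.1, 30.9, 36.6 and 30.9 CPM at T0 and at 53.1, 51.5, 57.1 and 45 CPM at T60. It stood at 41.2, 49.7 and 41.4 CPM at T90 and at 36.4, 30.1, 28.2 and 27.5 CPM at T120. All T60 libraries and all T90 libraries were above all T0 libraries, whereas the T120 range overlapped T0. It rose by log2 0.58 ± 0.13 at T60 (edgeR adjusted p = 0.000534) and by 0.35 ± 0.13 at T90 (edgeR adjusted p = 0.0245), and at T120 the change was -0.18 ± 0.13 (edgeR adjusted p = 0.205). From T90 to T120 it fell by 0.53 ± 0.13 on the log2 scale (edgeR adjusted p = 0.0076). The T90 call was lost without library T0 B, T0 D or T90 B, and the fall from T90 to T120 without T90 B or with any of the background subtracted. With raw column totals as the scaling, the T60 change was 0.25 (edgeR adjusted p = 0.123), and the T90 change -0.05.

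Pax3 lies close to a background of reads that differs between the groups. In 5 long genes that satellite cells are not known to express (Muc16, Mroh2a, Pclo, Dnah17 and Csmd1), the density was 2.86 ± 1.27 CPM per kb of exon (SD, n = 4) at T0 and 0.24 ± 0.0613 (n = 4) at T60. Another gene of that list, Ryr3, was set aside after its values were seen. The list named 29 long genes, of which 6 were in the table. If genes with few reads were left out of the table, this density is too high, and so are the shares and subtractions based on it. The same density over the exons of Pax3 would be 28.6 to 73.6% of its level at T0, 24.7 to 104% at T30 and at most 6.73% at T60 and T90. With the density of those 5 genes subtracted from every gene, the Pax3 change at T60 was 1.09 (edgeR adjusted p = 0.258). The same density was at most 2.77% of the Pax7 level in any library. What the background comes from was not tested.

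**Figure D2:**
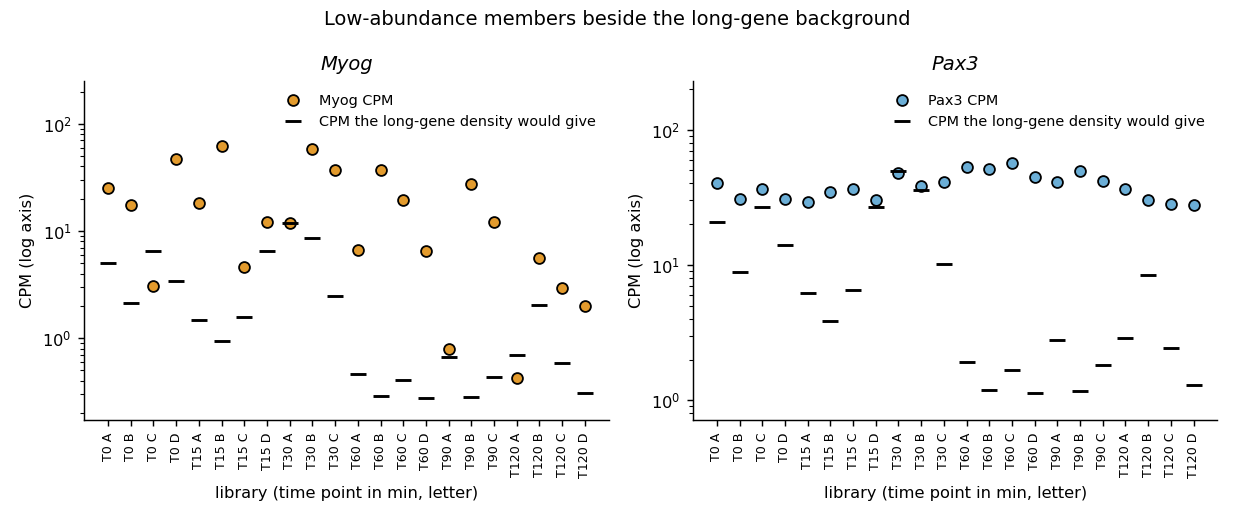
CPM (log axis) of Myog and Pax3 in each library as points, with a dash for the CPM that the read density of 5 long genes would give over the same exons. The dash is at or above the point for Pax3 in T30 A and for Myog in T0 C, T30 A and T120 A, and at T60 and T90 it is at most 6.73% of the Pax3 level.

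MYF5 is the first of the muscle bHLH factors in the embryo, and satellite cells store its mRNA. Myf5 stood at 205, 320, 211 and 236 CPM at T0 and at 361, 306, 332 and 297 CPM at T60. At T120 it stood at 278, 295, 219 and 363 CPM. The groups overlapped at every time against T0. The change at T60 was log2 0.41 ± 0.17 (edgeR adjusted p = 0.0401), and it was not called at T90 (0.31) or T120 (0.25 ± 0.17, edgeR adjusted p = 0.181). A joint test over all times did not call Myf5 (edgeR adjusted p = 0.17), and called the other 5, as it did 85.7% of all genes. The T60 call was lost without T0 A, T0 C, T0 D, T60 A or T60 C. It was 0.24 (edgeR adjusted p = 0.29) without the 5 libraries of highest background. It turned to -0.13 with the background of 6 long genes subtracted and to -0.04 without Ryr3 among them. Without T0 B, the highest T0 library, Myf5 was called up at T90 and at T120 (0.43, edgeR adjusted p = 0.0275), and with the authors' size factors at T90 (0.38, edgeR adjusted p = 0.05, just under the threshold before rounding). With the background of 6 long genes subtracted it was called lower at T120 (-0.46, edgeR adjusted p = 0.0488).

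MYOD1 is the factor whose expression marks activation of a satellite cell. Myod1 stood at 98, 79.5, 63.1 and 85.3 CPM at T0 and at 98.8, 116, 85.7 and 85.5 CPM at T60. At T90 it stood at 500, 267 and 284 CPM, and at T120 at 1070, 876, 875 and 919 CPM. T0 and T60 overlapped, every T90 library was above every T60 library, and every T120 library was above every T90 library. The change against T0 was log2 0.24 ± 0.19 at T60 (edgeR adjusted p = 0.303), 2.1 ± 0.21 at T90 (edgeR adjusted p = 2.09e-08) and 3.52 ± 0.21 at T120 (edgeR adjusted p = 8.32e-12), 11.5-fold higher. Between T60 and T90 the rise was 1.86 ± 0.21 (edgeR adjusted p = 7.92e-06), the 20th highest of 8059 genes in a step that called 30.3% of them. Library T90 A was the high one at T90, with 500 CPM where T90 B had 267 and T90 C had 284, and it was also the T90 library with the lowest Pax7.

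Msc was called at T60, where Myod1 was not. Msc stood at 45.3, 49.6, 43 and 60.6 CPM at T0 and at 38.3, 53.4 and 48.6 CPM at T30. At T60 it stood at 88, 135, 67.6 and 117 CPM, at T90 at 311, 228 and 207 CPM, and at T120 at 342, 397, 376 and 401 CPM. Each group from T60 on was above the group before it in every library. The log2 change against T0 was 1.03 ± 0.18 at T60 (edgeR adjusted p = 7.85e-05), 2.32 ± 0.2 at T90 (edgeR adjusted p = 2.31e-09) and 2.92 ± 0.19 at T120 (edgeR adjusted p = 3.08e-11). In the edgeR fit of all libraries it was the only one of the 6 called between T30 and T60 (1.12 ± 0.2, edgeR adjusted p = 0.000136), where 51% of all genes were called and 26.5% were called up. The call for the last step, 0.61 ± 0.19 (edgeR adjusted p = 0.0277), was lost without T90 B, T90 C or T120 D and with any of the background subtracted. Subtracting the background without Ryr3 took the T30 to T60 step of Msc to 0.64 (edgeR adjusted p = 0.0501) and called Pax7 (-1.12, edgeR adjusted p = 0.00768), Myf5 (-0.54, edgeR adjusted p = 0.0378) and Myod1 (-0.73, edgeR adjusted p = 0.0416) lower, where the median of all genes was 0.40. Myf5 was called up at that step with limma-voom (0.43, limma adjusted p = 0.0485) and with only the 2 times in the fit (0.38, edgeR adjusted p = 0.0415), and without T30 C (0.56, edgeR adjusted p = 0.0205).

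Myog, the differentiation factor, was low and varied between libraries. It stood at 25.4, 17.4, 3.07 and 47.3 CPM at T0 and at 18.3, 62.7, 4.61 and 12.1 CPM at T15. At T60 it stood at 6.71, 36.9, 19.6 and 6.58 CPM, and at T90 at 0.788, 27.5 and 12.1 CPM. At T120 it stood at 0.427, 5.64, 2.95 and 2.01 CPM, and 3 of these 4 libraries were below every T0 library. The change at T120 was log2 -3.15 ± 0.97 (edgeR adjusted p = 0.00571), with the ranges of the groups overlapping through library T0 C, and no earlier time was called. The background density would be 212% of the Myog level in T0 C and 162% in T120 A, so Myog in those libraries was below that background. With that background subtracted, the change was -3.68 (edgeR adjusted p = 0.0538). Against T60, the T120 ranges did not overlap (log2 -2.69 ± 0.95, edgeR adjusted p = 0.0195), and that call was lost without T60 B, T120 A or T120 D, with any of the background subtracted, and with limma-voom (-2.62, limma adjusted p = 0.0882). Between T90 and T120 Myog was called only without T90 A (-2.83, edgeR adjusted p = 0.0343).

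**Figure D3:**
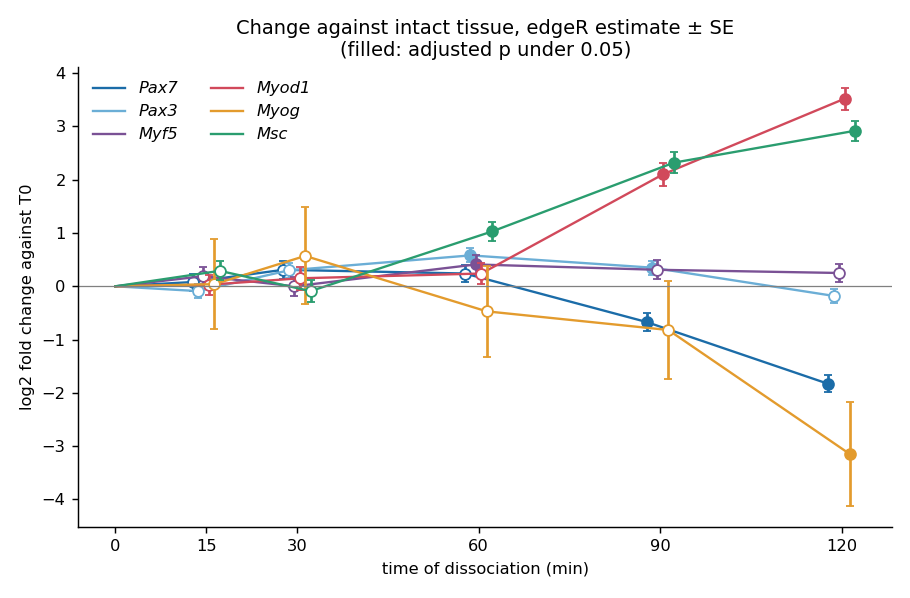
Log2 fold change against T0 with its standard error for each of the 6 genes at each later time, from the edgeR fit of all 22 libraries, with filled points for an adjusted p under 0.05; points are offset sideways so that they can be told apart. Myod1 and Msc reach 3.52 and 2.92 at T120, Pax7 reaches -1.83, and Myog has the widest error bars.

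Neighbouring times were compared in the same fit. No member was called between T15 and T30, where 4.89% of all genes were. Between T60 and T90, 3 of 6 were called beside 30.3% of all genes: Myod1 and Msc up (16.7% of all genes) and Pax7 down (13.6%). Between T90 and T120, 4 of 6 were called beside 23%: Myod1 and Msc up (9.11%) and Pax7 and Pax3 down (13.9%). From T60 to T120, 5 of 6 were called, all but Myf5, beside 60.4%, with 2 up (28.4%) and 3 down (32%). Libraries of the 2 times did not overlap for 3 of 6 members between T60 and T90 (38.7% of all genes) and for 4 of 6 between T90 and T120 (26.8%), for 1 between T15 and T30 (13.5%), for 1 between T30 and T60 (53.8%) and for 5 between T60 and T120 (56%). Against T0, they did not overlap for 0 members at T15 (2.8%) and T30 (17.3%). At T60 this held for 2 members (54.8% of all genes), at T90 for 4 (67%), and at T120 for 3 (71.4%).

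Levels of different genes were compared per kb of exon, with all annotated exons of a gene joined. This length is well above the longest transcript for Msc (2546 against 1741 bases) and Pax3 (6187 against 3863 bases). By the longest transcript, levels of these genes per kb would be higher. Their overlaps with neighbours and the Pax3 share given below depend on that choice. At T0 the order was Pax7 (229 CPM per kb), Myf5 (117), Myod1 (43.8), Msc (19.5), Myog (15.6) and Pax3 (5.6). At T0 the ranges of Msc and Myog overlapped, as did those of Myog and Pax3. At T120 the order was Myod1 (503), Msc (149), Myf5 (139), Pax7 (64.4), Pax3 (4.94) and Myog (1.84), and only Msc and Myf5 overlapped among neighbours. Myod1 thus went from the third place to the first and Pax7 from the first to the fourth. At T90 the top 3, Myod1 (188 ± 69.6, SD, n = 3), Pax7 (144 ± 24.8) and Myf5 (144 ± 15.7), had overlapping ranges.

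The Myf5, Myod1 and Myog transcripts were also set against their sum. Myod1 was 25.1 ± 4.51% (SD, n = 4) of the summed level of the 3 genes per kb at T0, 23.6 ± 2.29% (n = 4) at T60, 54.1 ± 8.04% (n = 3) at T90 and 78.2 ± 3.76% (n = 4) at T120. Myf5 went from 66.4 ± 8.62% at T0 to 21.5 ± 3.7% at T120, and Myog from 8.45 ± 6.47% to 0.299 ± 0.242%. Pax3 made up 2.4 ± 0.212% of the summed Pax3 and Pax7 level at T0 and 7.24 ± 0.994% at T120. The share of Pax3 was higher at T120 than at T0 in every library, while its own level overlapped T0 and that of Pax7 was lower. The ratio of Myod1 to Pax7 per kb was 0.195 ± 0.0476 at T0 and 0.194 ± 0.0438 at T60, 2.15, 0.835 and 1.13 in the T90 libraries, and 7.98 ± 1.26 at T120.

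**Figure D4:**
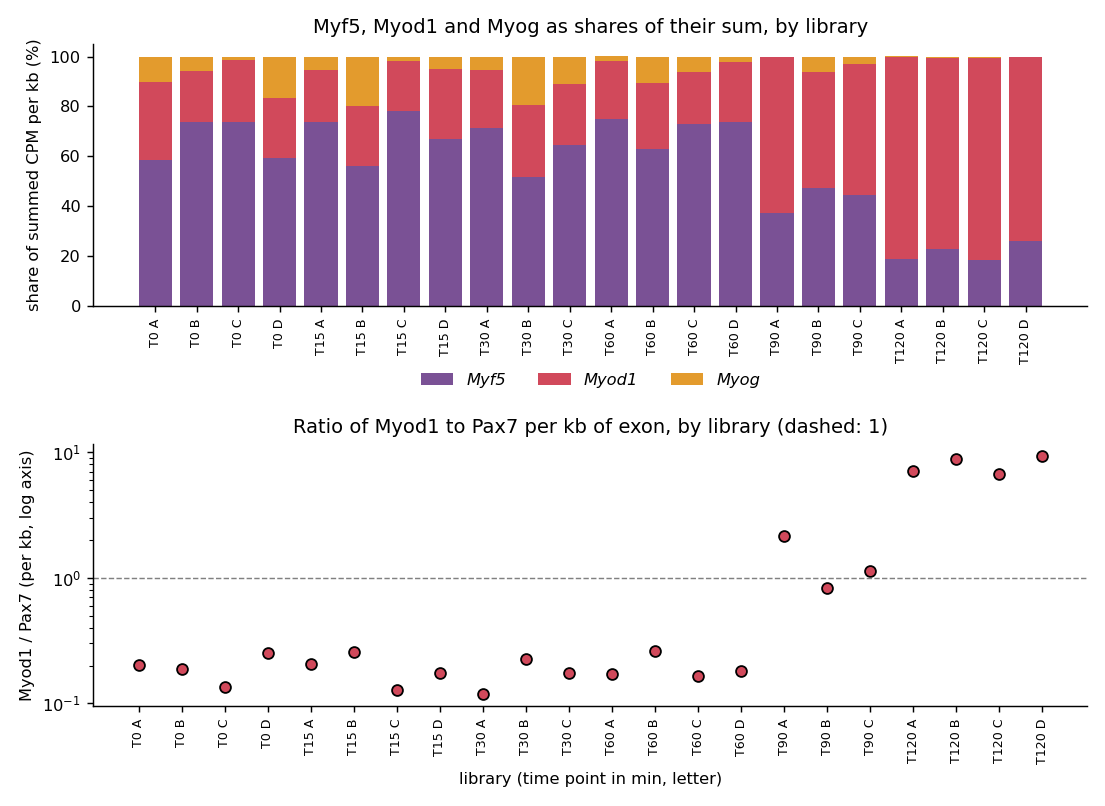
The upper panel gives the share of Myf5, Myod1 and Myog in the sum of their levels per kb of exon, in percent, as 1 stacked bar per library, and the lower panel gives the ratio of Myod1 to Pax7 per kb (log axis) in each library, with a dashed line at 1. Myod1 takes a mean of 25.1% at T0 and 78.2% at T120, and the ratio is above 1 in T90 A, T90 C and the 4 T120 libraries.

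A ratio of 2 members within a library does not depend on how libraries are scaled. The log2 ratio of Myod1 to Pax7 rose over T0 by 2.73 at T90 and 5.38 at T120. The exact two-sided permutation p was 0.0571 and 0.0286, which are the smallest these numbers of libraries allow, and after adjustment over 75 ratios and times the values were 0.195 and 0.179. None of the 15 pairs had an adjusted p under 0.05 at any time. At T30 and T90 no pair could have, since the smallest possible p there is 0.0571. At the other times that would have needed most pairs to reach their smallest p together. The lack of calls is therefore not a result about the pairs. The ranges did not overlap T0 for 1 pair of 15 at T60, 8 at T90 and 11 at T120. Among all single genes, the ranges did not overlap T0 for 54.8% at T60, 67% at T90 and 71.4% at T120. The share for pairs of other genes was not tested, and the 15 pairs share members and are not independent. These counts are therefore not a result about the pairs either. The pair at T60 was Myod1 to Msc, lower by 0.75 on the log2 scale, and at T120 that ratio was higher than T0 by 0.59, also without overlap. Relative to T0, Msc was thus the higher of this pair at T60 and Myod1 at T120. Pax3 relative to Pax7 differed by 1.66 at T120 without overlap.

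The partners of these factors in the same table were counted by list, to be read beside the shares of all genes called. Those were 37.3% up and 39.5% down at T120, 33.8% up and 35% down at T90, and 27.9% up and 28.3% down at T60. E proteins and Id inhibitors hold the E-box partners of the family (Tcf3, Tcf4 and Tcf12) and the Id proteins that block them. Of 6 listed, 3 rose and 2 fell at T120 (83.3% called, beside 76.8% of all genes), with a median log2 change of 0.29 where that of all genes was -0.08. Id3 (1.12 ± 0.16, edgeR adjusted p = 1.79e-06) and Id2 (1.02 ± 0.27, edgeR adjusted p = 0.00168) rose, and Tcf4 (-0.56 ± 0.1, edgeR adjusted p = 4.23e-05) and Tcf3 (-0.53 ± 0.16, edgeR adjusted p = 0.00421) fell. At T90, 4 of the 6 were up and none down (66.7% called, beside 68.8%). From T60 to T120, none of the 6 rose and 4 fell (66.7% called, beside 60.4% of all genes). Id3 was higher than T0 by 2.48 ± 0.16 at T60 (edgeR adjusted p = 8.32e-11). It then fell by 1.35 ± 0.15 on the log2 scale from T60 to T120 (edgeR adjusted p = 3.87e-07).

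MEF2 factors, and the homeodomain and EYA factors listed with them, act with the MYOD1 family on muscle genes. Of 10 listed at T120, 3 rose (37.3% of all genes) and 6 fell (39.5%), with a median of -0.45. Mef2a (1.4 ± 0.14, edgeR adjusted p = 8.77e-09) and Mef2d (1.31 ± 0.08, edgeR adjusted p = 2.13e-11) rose, and Lbx1 (-1.16 ± 0.18, edgeR adjusted p = 5.02e-06) fell. MEF2 factors bind promoters with MYOD1, and LBX1 is a homeodomain factor of migrating muscle precursors. At T60, 4 of 10 were up and 2 down (60% called, beside 56.2% of all genes).

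Repressors of MYOD1 family activity went both ways at T120, with 3 up and 3 down of 9 and a median of 0.12. That is 66.7% called, beside 76.8% of all genes, so the count is not a result about the list. Sox9 rose by 2.48 ± 0.24 (edgeR adjusted p = 9.19e-09) and Hdac5, a class II histone deacetylase that holds MEF2 in check, by 0.75 ± 0.16 (edgeR adjusted p = 0.000261). Bhlhe41 (-3.29 ± 0.2, edgeR adjusted p = 7.9e-12) and Sox8 (-3.01 ± 0.32, edgeR adjusted p = 3.66e-08) fell. Sox8 stood at 132 ± 26.2 CPM (SD, n = 4) at T0 and 16.6 ± 4.05 at T120, and Bhlhe41 at 63.7 ± 8.28 and 6.57 ± 0.939 CPM. BHLHE41 is a bHLH repressor known to act against MYOD1, and Msc, another repressor of that family, rose as described above.

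Chromatin cofactors of PAX7 and MYOD1 had 14 of 23 members up and 6 down at T120 (87% called, beside 76.8% of all genes), with a median of 0.44. Sirt1, a deacetylase, rose by 1.75 ± 0.16 (edgeR adjusted p = 5.34e-09) and Kdm1a, a histone demethylase, by 1.63 ± 0.12 (edgeR adjusted p = 1.9e-10). Smarcd3, a subunit of the SWI/SNF remodeller that MYOD1 uses, fell by 1.45 ± 0.12 on the log2 scale (edgeR adjusted p = 6.97e-10), and Ehmt1, a histone methyltransferase, by 1.17 ± 0.12 (edgeR adjusted p = 3.46e-08). At T60 the list had 12 up and 4 down (69.6% called, beside 56.2%), a median of 0.34 where all genes gave -0.03. With raw column totals, 7 chromatin cofactors were up at T120, where that scaling puts the median of all genes at -0.46, and with the background of 6 long genes subtracted 8 were up.

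RNA-binding regulators of myogenic mRNAs had 11 of 13 members up (37.3% of all genes) and 1 down (39.5%) at T120, with a median of 0.95. The members include Zfp36, which rose from 19.6 ± 3.25 CPM (SD, n = 4) to 416 ± 119 CPM (log2 4.42 ± 0.23, edgeR adjusted p = 1.32e-12) and whose product, tristetraprolin, is known to speed decay of the Myod1 mRNA. Rbm38 rose by 2.76 ± 0.27 (edgeR adjusted p = 1.14e-08), and Rbm24, which stabilises mRNAs in differentiation, fell by 1.01 ± 0.31 on the log2 scale (edgeR adjusted p = 0.00622). The Rbm24 call was lost without library T0 D. At T60 12 of 13 were up (27.9% of all genes), none down, with a median of 0.57. Zfp36 is also a gene of the immediate early response. Its log2 change against T0 was 5.95 ± 0.24 at T60 (edgeR adjusted p = 2.31e-13). From T60 to T120 Zfp36 fell by 1.52 ± 0.2 on the log2 scale (edgeR adjusted p = 1.84e-06).

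Muscle differentiation targets, a list of genes of muscle structure, the synapse and cell contact, had 4 of 13 up and 6 down at T120, with a median of -0.43. That is 76.9% called, beside 76.8% of all genes, so the count is not a result about the list. Cdh15 and Itga7 of this list were also among the satellite cell markers. The name of the list does not make each member a target of myogenin. Des, the muscle intermediate filament, rose by 1.7 ± 0.14 (edgeR adjusted p = 1.05e-09) and Musk, a kinase of the neuromuscular junction, by 1.35 ± 0.14 (edgeR adjusted p = 2.01e-08). Dll1, a Notch ligand, fell by 1.33 ± 0.23 on the log2 scale (edgeR adjusted p = 2.48e-05) and Cdh15, a cadherin of satellite cells, by 1.12 ± 0.15 (edgeR adjusted p = 1.02e-06). Of 13, 5 were up and none down at T60 (38.5% called, beside 56.2%).

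**Figure D5:**
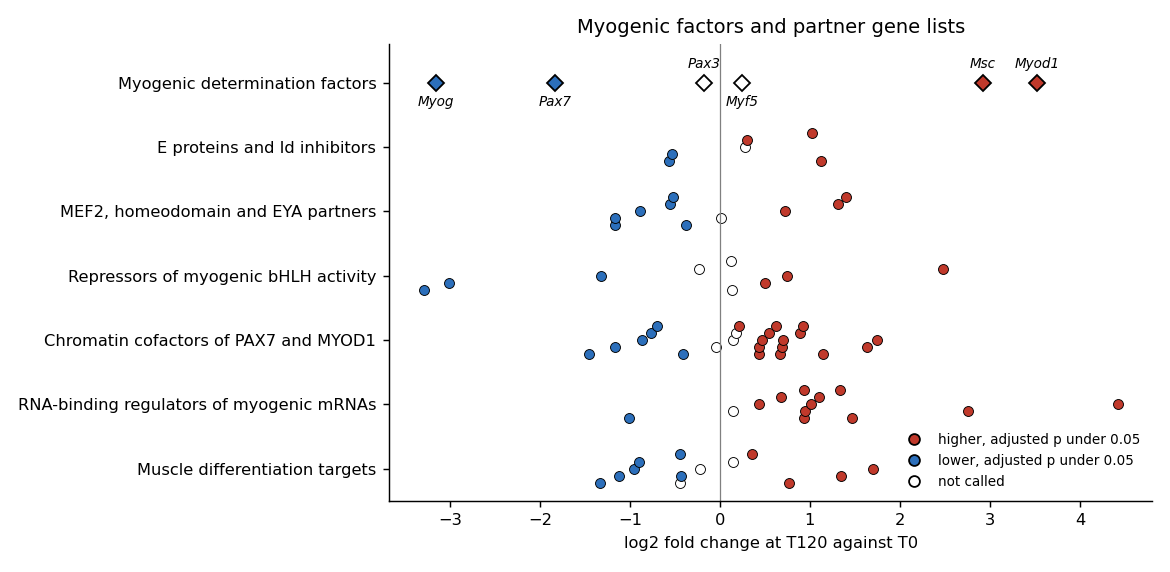
Log2 fold change at T120 against T0 of each member of the 6 partner lists, and of the 6 myogenic factors as named diamonds, coloured by the edgeR call; the height within a row has no meaning. The RNA-binding list has 11 of 13 members higher, and the differentiation targets have 4 higher and 6 lower of 13.

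For each of the 6 genes the 3 most similar patterns over the 22 libraries were taken by Pearson's r of log2 CPM among 8059 genes, as a description with no test, since the libraries share depth and time. Pax7 was most like Frem1 (0.969), Zbtb4 (0.968) and Ebf3 (0.954), and Myod1 most like Mast2 (0.981), Atp2b1 (0.975) and Esf1 (0.969). Msc was most like Hipk1 (0.987), Gnl2 (0.984) and Pias2 (0.984). The nearest genes of the other 3 members had lower r: Pax3 with Jdp2 (0.879), Osr2 (0.862) and Mid1ip1 (0.855), Myf5 with Lnpep (0.788), H6pd (0.786) and Fcho2 (0.785), and Myog with Dgkz (0.891), Spg21 (0.89) and Mest (0.884). By Spearman's rank correlation none of the 3 nearest genes was shared for Pax7, Myf5 or Myod1, 1 was for Pax3 and for Msc, and 2 were for Myog. Among the 6, Pax7 ran opposite to Myod1 (-0.94) and Msc (-0.88), and Myod1 ran with Msc (0.94), over 22 libraries.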

How the data were processed

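Per the file headers, the deposited table holds whole-number counts per gene for 22 libraries, which were used as deposited. The authors' size-factor scaled and rounded counts, a deposited score, served as an alternative scaling (recovered within 0.625). The authors' deposited log2 fold changes and adjusted p-values, per the file headers, were copied for comparison only. In the authors' deposited table the T120 against T0 log2 fold changes were -1.791 for Pax7, 3.57 for Myod1, 2.978 for Msc and -3.657 for Myog. Per the submitters' processing notes, cutadapt 1.11, featureCounts 1.4.5-p3 and DESeq2 1.18.1 were among the tools and mm10 the build. No source used here names the aligner or the strand setting. Per the labels, 9 of the 15 samples are of single cells or nuclei and were not analysed here.

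Counts were fitted with edgeR 4.0.16 (R 4.3.3): filterByExpr, which kept all 8059 genes, TMM scaling, a quasi-likelihood F test with the time point as the factor, and Benjamini-Hochberg adjustment (common biological coefficient of variation 0.192). On data simulated for T120 against T0 over 8059 genes, the fit recovered 26.9% of 1.5-fold, 91% of 2-fold and 100% of 4-fold changes, with 7 false calls. Only 67, 67 and 66 genes were changed there, equally up and down, with the same spread for all genes. In the real comparison 6187 genes were called, so the simulated recovery and false calls may not hold for it. Levels per kb used the union of exons of GENCODE vM21, to which 8049 genes matched. Ratios used log2 of counts plus 0.5 and an exact two-sided permutation test (scipy 1.17.1). DESeq2 1.42.0 and limma 3.58.1 were alternatives, beside other scalings, background subtraction and leaving out libraries.

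Named were all 6 genes, at most 2 raised and 2 fallen genes of each list with the largest change at T120 against T0, and the 3 genes most alike each of the 6. A gene of the lists that this rule names is not reported here. The 6 genes, the lists and the tests were chosen with earlier results of these data known. Lists were counted over their listed genes: 6 of 7 E proteins and Id inhibitors, 10 of 23 MEF2, homeodomain and EYA partners, 9 of 15 repressors, 23 of 24 chromatin cofactors, 13 of 13 RNA-binding regulators and 13 of 27 differentiation targets.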

Additional observations from a re-analysis of the deposited data

How the results depend on the processing

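The calls of Pax7, Myod1 and Msc against T0 at T90 and T120 kept their direction and their adjusted p under 0.05 under every alternative run, and so did those of Myog at T120 except with the background without Ryr3 subtracted (-3.68, edgeR adjusted p = 0.0538). Of the 6 genes, 3 were called at T60, and 1 with raw column totals and 1 with the background without Ryr3 subtracted. The log2 ratio of Myod1 to Pax7 at T60 was 0.0, and -0.01 with a pseudocount of 5. Raw column totals moved the median log2 change of all genes to -0.35 at T60, -0.46 at T90 and -0.46 at T120. At T120 it also moved 1 other list count, to 5 repressors down. The background of 6 long genes subtracted left 2 MEF2, homeodomain and EYA partners down, 1 repressor up, 0 RNA-binding regulators down and 2 differentiation targets up at T120. Without Ryr3 in it, 1 E protein or Id gene and 7 chromatin cofactors were up, and 3 MEF2, homeodomain and EYA partners were down. Whether the letters pair the libraries was not settled, and the main fit did not use them. The mean correlation of 51 same-letter pairs was 0.0451, from -0.575 to 0.467, with 26 pairs over 0.1. For pairs of different letters the mean was -0.0158, and 11 of 22 libraries correlated best with their own letter. With a replicate block by letter, Myf5 at T60 (0.41, edgeR adjusted p = 0.0563) was no longer called and Pax3 between T30 and T60 (0.33, edgeR adjusted p = 0.0411) was. Pax3 at T120 was called with raw column totals (-0.57, edgeR adjusted p = 0.00121). With only the 2 times compared in the fit, the Pax3 calls at T90 (0.35, edgeR adjusted p = 0.0576) and from T90 to T120 (-0.50, edgeR adjusted p = 0.0564) were lost. The background without Ryr3 was added after seeing the data.

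Changes of sign, as log2 fold changes of the later over the earlier time, are these. With the authors' size factors: Msc T30/T0 0.01. With the background of 6 long genes subtracted: Pax7 T15/T0 -0.08, Pax3 T15/T0 2.36, Myod1 T15/T0 -0.10, Myog T15/T0 -0.25, Msc T30/T0 0.04, Pax7 T60/T0 -0.38, Myf5 T60/T0 -0.13, Myod1 T60/T0 -0.24, Myf5 T90/T0 -0.36, Pax3 T120/T0 3.46, Myf5 T120/T0 -0.46, Pax3 T30/T15 -0.11, Myf5 T30/T15 0.31, Myf5 T60/T30 -0.48, Myod1 T60/T30 -0.68. With the background without Ryr3 subtracted: Pax7 T15/T0 -0.11, Pax3 T15/T0 0.02, Myod1 T15/T0 -0.12, Myog T15/T0 -0.15, Pax3 T30/T0 -0.61, Msc T30/T0 0.12, Pax7 T60/T0 -0.28, Myf5 T60/T0 -0.04, Myod1 T60/T0 -0.17, Myf5 T90/T0 -0.14, Pax3 T120/T0 0.28, Myf5 T120/T0 -0.10, Pax3 T30/T15 -0.63, Myf5 T30/T15 0.49, Myf5 T60/T30 -0.54, Myod1 T60/T30 -0.73, Myf5 T120/T90 0.04. With raw column totals: Pax7 T15/T0 -0.01, Myod1 T15/T0 -0.05, Myog T15/T0 -0.04, Pax7 T60/T0 -0.09, Myod1 T60/T0 -0.08, Pax3 T90/T0 -0.05, Myf5 T90/T0 -0.09, Myf5 T120/T0 -0.13, Pax3 T60/T30 -0.06, Myod1 T60/T30 -0.25. With 50% of that background subtracted: Pax7 T15/T0 -0.01, Myod1 T15/T0 -0.04, Myog T15/T0 -0.05, Msc T30/T0 0.02, Pax7 T60/T0 -0.08, Myod1 T60/T0 -0.02, Myf5 T90/T0 -0.02, Pax3 T120/T0 0.16, Myf5 T120/T0 -0.10, Myf5 T30/T15 0.07, Myf5 T60/T30 -0.06, Myod1 T60/T30 -0.32. With limma-voom: Myog T15/T0 -0.35. With a replicate block by letter: Myog T15/T0 -0.46. With the 5 libraries of highest background left out: Pax3 T15/T0 0.12, Myog T15/T0 -0.18, Pax3 T120/T0 0.04, Myf5 T30/T15 0.03, Myod1 T60/T30 -0.08. Leaving out 1 library at a time gave Msc T30/T0 -0.19 to 0.04, Myf5 T120/T90 -0.16 to 0.06, Myf5 T30/T0 -0.15 to 0.17, Myod1 T15/T0 -0.08 to 0.13, Myod1 T60/T30 -0.12 to 0.21, Myog T15/T0 -1.05 to 0.65, Myog T60/T0 -1.14 to 0.15, Myog T90/T60 -1.36 to 0.32, Pax7 T15/T0 -0.03 to 0.15. Counts of Pax3 and Myog in T0, T15 and T30 limit what can be read from small changes.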

Other observations

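Myog was highest in library B at 5 of the 6 times, the exception being T0, where library D was highest. This was noted after its values were seen and has no test, and the letters of different times are not stated to share an animal or a day. Over the 22 libraries, Pearson's r of log2 CPM with Myog was over 0.5 for 6 of the 13 differentiation targets: Megf10 (0.83), Dll1 (0.8), Jsrp1 (0.77), Cdh15 (0.71), Chrna1 (0.69) and Cdkn1c (0.55). It was below 0 for Musk (-0.54), Des (-0.46), Boc (-0.31) and Itga7 (-0.13), and from 0.22 to 0.44 for Chrnb1, Tnnt1 and Cdon. Cdh15 and Itga7 were also among the satellite cell markers, so r with Myog over this list does not describe differentiation genes alone. Of the 8058 other genes in the table, 25% had r over 0.5 with Myog and 22.3% had r under -0.5. It was over 0.5 for 0 of the 5 listed myofibre markers, which ranged from -0.53 (Acta1) to 0.37 (Ttn), and r of Myog with the log2 background density was 0.24. The libraries share depth and time, so these correlations are descriptions.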
